A study of Mus musculus with 14 samples.

Results

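The collagen genes of the retinal pigment epithelium (RPE) were taken as every protein-coding mouse gene whose symbol reads Col, a number, the letter a and a number. This rule used no measured value and gave 44 genes of 34452 mouse gene rows, 21751 of them protein-coding. All 44 had reads in at least 1 library, and 39 had enough counts to be tested. The 5 others, Col6a4, Col6a5, Col6a6, Col19a1 and Col28a1, stayed at or under 5.30 CPM (counts in 1e+06 counts of the library) in every library.

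The RPE is the pigmented cell layer behind the photoreceptors, and the animals were rd1 mice (FVB background), which lack a working rod phosphodiesterase (Pde6b) and whose rods die early. Each of 7 mice was sampled at P20. One eye of each had received AAV-Best1-Nrf2 together with AAV-Best1-GFP, and the contralateral eye had received AAV-Best1-GFP alone. AAV is an adeno-associated virus, and the Best1 promoter drives the human Nrf2 cDNA (NFE2L2), a transcription factor of the oxidative stress response, or green fluorescent protein (GFP) in RPE cells. The groups are called Nrf2 and control, with 7 eyes each, and libraries carry the number of the mouse. All 14 eyes therefore shared the rd1 background and the GFP vector, and the Nrf2 eye also had the added load of another virus, packed in another capsid. RNA was collected from the eyecup after the retina had been removed and connective tissue had been cleaned away, and it was amplified from low input before sequencing. Such a sample is bulk RNA, so that fewer cells of a type and less RNA per cell cannot be told apart.

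Collagens are secreted or membrane-bound proteins in which chains with the repeat glycine-X-Y wind into a triple helix. The RPE rests on Bruch's membrane, in which the basement membranes of the RPE and of the choroidal vessels, both built on collagen IV networks, enclose layers of fibrillar collagen. Network collagens such as collagen VIII, beaded filaments of collagen VI and fibril-associated collagens connect these layers to each other and to cells. Classes below follow this textbook scheme, with 11 fibrillar genes, 8 of basement membranes, 6 of collagen VI, 9 of fibril-associated collagens with interrupted triple helices (FACIT), 4 transmembrane genes and 6 short-chain network and other genes.

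Several libraries stood apart and touch the results below. The vector transcript was at 4577 to 8711 CPM in 6 Nrf2 libraries but at 1163 CPM in Nrf2 4, and at 1.12 to 175 CPM in 6 control libraries but at 1163 CPM in the library labelled control 3. Over 16289 genes, Nrf2 4 and control 3 were also the closest of all 91 pairs of libraries, with an SD of the log2 difference of 0.51, although they come from different mice and groups. The 2 libraries farthest apart were Nrf2 2, the one with the fewest counts, and control 6, at an SD of 1.81. Total counts ran from 16548349 to 50543008. All 14 RPE markers examined were detected, with summed levels of 22780 to 33320 CPM in Nrf2 and 19400 to 39810 CPM in control eyes. One of them, Rpe65, the isomerase of the visual cycle, fell by 2.17 on the log2 scale (SE 0.37, edgeR adjusted p = 0.0198). It was the only marker of the 14 called by edgeR, or 7.14%, against 0.491% of all genes called lower. Of the 14 log2 fold changes 7 were positive and 7 negative, with a median of -0.04. Leading results are given with and without mice 3 and 4, and differences within a mouse are on TMM-scaled log2 CPM.

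The triple helix shows in the gene structure itself. A glycine-X-Y unit takes 9 bases of coding sequence, and in the GENCODE M21 annotation 63.9% of the 1917 inner coding exons of the 44 genes had a length that is a multiple of 9 bases, against 13.7% of 156774 such exons in other protein-coding genes. Exons of exactly 54 bases made up 24.5% of the collagen exons and 0.443% of the others. The fibrillar genes kept this pattern most closely, at 83.9% and 48.6%, and the basement membrane genes least, at 45.2% and 4.43%. Col8a1, Col8a2 and Col10a1 stood apart in having only 3 or 4 exons and no inner coding exon.

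Transcript levels, compared as CPM per kb of transcript over all 14 libraries, were dominated by a few members. Col8a1 and Col8a2, the chains of the short-chain collagen VIII that forms hexagonal networks in Bruch's membrane, reached 348.6 ± 93.3 and 345.1 ± 116 CPM per kb (SD, n = 14). Col9a3, a chain of the FACIT collagen IX, reached 326.3 ± 134 CPM per kb. These 3 did not differ beyond their spread, and a gap followed down to Col18a1 at 107 ± 29.4 CPM per kb. Col18a1 encodes the basement membrane collagen that releases endostatin, an inhibitor of vessel growth. From Col18a1 down to Col4a1, the member in place 17 at 8.09 ± 3.00 CPM per kb, each gene lay within 1 SD of its neighbour in the order. The classical fibrillar genes Col1a1, Col1a2 and Col3a1 were at 21.9 ± 12.96, 17.1 ± 5.75 and 13.4 ± 4.00 CPM per kb, close to the collagen IV chains, which ran from 8.09 to 30.4 CPM per kb.

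**Figure D1:**
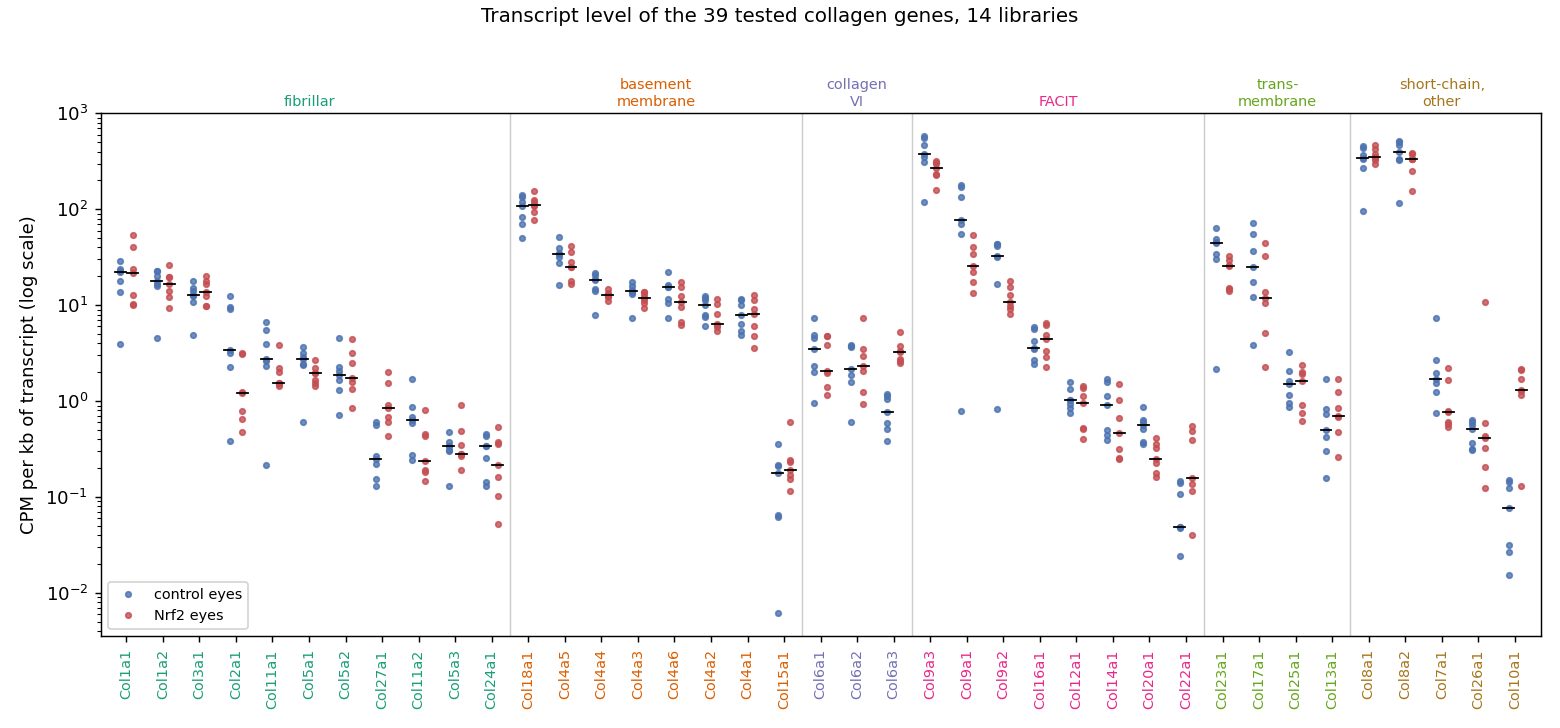
Transcript level of each of the 39 tested collagen genes as CPM per kb of transcript on a log axis, grouped by class, with 1 point per library (blue, 7 control eyes; red, 7 Nrf2 eyes) and a black bar at each group's median. Col8a1, Col8a2 and Col9a3 have the highest means, and Col6a3 is the only gene whose red and blue points do not overlap.

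To ask how Nrf2 in the RPE altered collagen transcripts, both eyes of each mouse were compared in a paired fit (edgeR quasi-likelihood F-test, Benjamini-Hochberg adjustment over 16289 genes). Of the 39 tested collagen genes, 2 passed an adjusted p of 0.05, or 5.13%, against 3.43% of all genes tested. Both were higher in Nrf2 eyes, where 2.94% of all genes were called higher and 0.491% lower. Before adjustment 7 of 39 had a p under 0.05, with 18.1% of all genes doing so. The median log2 fold change of the 39 genes was -0.09, with 17 positive and 22 negative, next to -0.04 for all genes.

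Col6a3 and Col10a1 were the genes that rose. Col6a3 encodes the long chain that joins the products of Col6a1 and Col6a2 in the collagen VI monomer, and Col10a1 encodes a short-chain collagen known from hypertrophic cartilage. In no class did more than 1 gene pass.

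**Figure D2:**
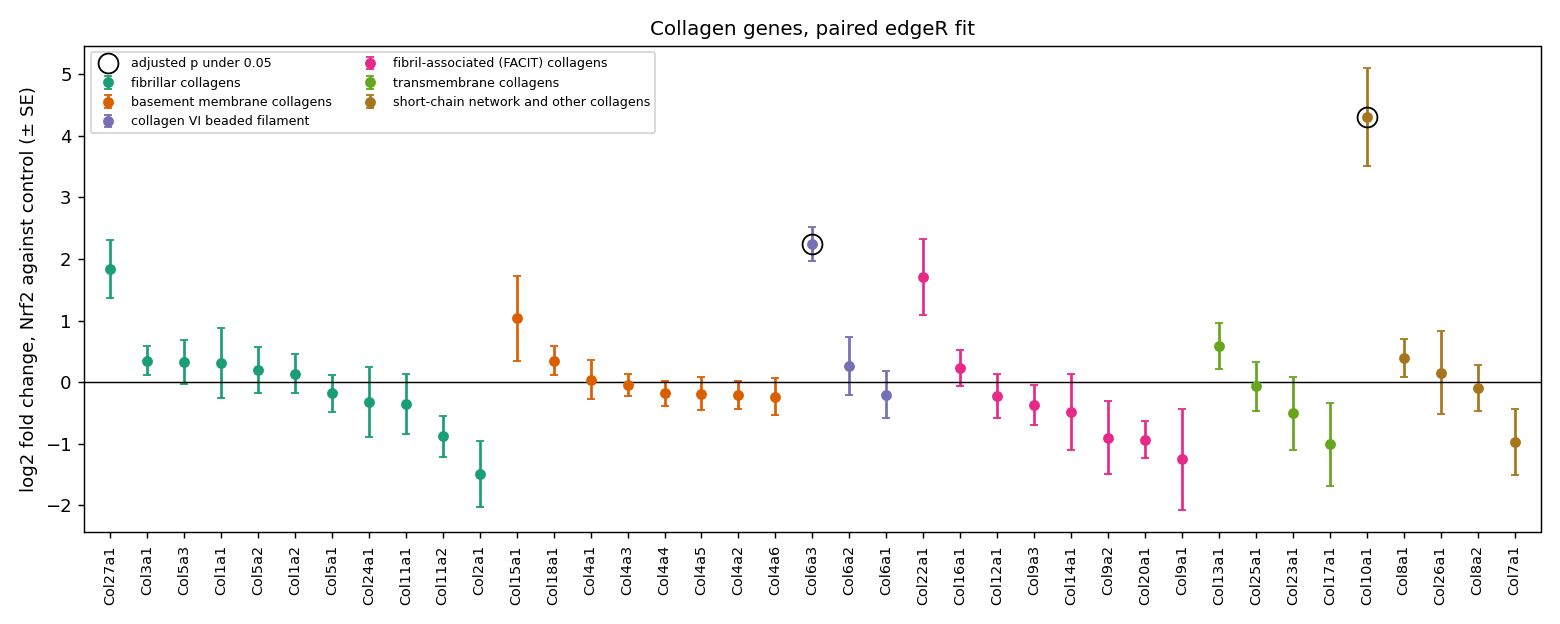
Log2 fold change of Nrf2 against control eyes for the 39 tested collagen genes with its SE (bars), from the paired edgeR fit, coloured and grouped by class and ordered by fold change within each. Black rings mark Col6a3 (2.24) and Col10a1 (4.30), and the collagen IV genes Col4a1 to Col4a6 all lie between -0.23 and 0.04.

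Col6a3 (ENSMUSG00000048126) lies on the minus strand of chromosome 1, at 90765923 to 90843971 in GRCm38. In Nrf2 eyes it measured from 25.3 to 53.1 CPM with a median of 33.1, and in control eyes from 3.88 to 11.9 CPM with a median of 7.78. Every Nrf2 eye lay above every control eye. Among all genes tested, the groups did not overlap for 1.79%, and all Nrf2 eyes lay above all control eyes for 1.04%. The group means were 34.0 ± 9.61 and 8.12 ± 3.23 CPM (SD, n = 7). The log2 fold change was 2.24 (SE 0.28, edgeR adjusted p = 0.00935). All 7 of 7 mice had more Col6a3 in the Nrf2 eye, by 1.40 to 3.86 on the log2 scale (exact two-sided sign-flip permutation test, p = 0.0156, the smallest that 7 pairs allow), and 8.58% of all genes tested moved one way in all 7. Without mice 3 and 4 the log2 fold change was 2.24 (adjusted p = 0.0235). Without mouse 2 as well it was 2.29, but its adjusted p was 0.0631 with 4 mice left.

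The other collagen VI chains did not pass the test. Col6a1 measured from 4.74 to 19.8 CPM in Nrf2 eyes, median 8.53, and from 3.92 to 29.9 CPM in control eyes, median 14.4. Col6a2 measured from 3.69 to 29.2 CPM in Nrf2 eyes, median 9.22, and from 2.40 to 15.3 CPM in control eyes, median 8.55. The groups overlapped widely for both genes. Their log2 fold changes were -0.20 (SE 0.38) and 0.26 (SE 0.47), each with an edgeR adjusted p of 0.82. Col6a4, Col6a5 and Col6a6, whose products can replace the Col6a3 chain, were too low to test. Their highest counts in any library were 17, 23 and 126.

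Within a library, depth cancels from the ratio of 2 chains. Per kb of transcript, Col6a3 stood at 0.575 to 2.72 times Col6a1 in Nrf2 eyes, median 1.67, and at 0.0701 to 0.624 times in control eyes, median 0.233. The ratio was higher in the Nrf2 eye of 7 of 7 mice, by 2.43 ± 1.28 on the log2 scale (SD, n = 7), and only the lowest Nrf2 and highest control values overlapped. The ratio of Col6a3 to Col6a2 was higher in 6 of 7 mice, by 1.99 ± 1.48. The 2 genes that are neighbours on chromosome 10 in the same orientation, Col6a1 and Col6a2, kept a narrower ratio of 0.646 to 1.497 in Nrf2 eyes and 1.21 to 1.99 in control eyes. Over the 13 chain ratios compared, none passed the exact two-sided sign-flip permutation test after Benjamini-Hochberg adjustment. For Col6a3 to Col6a1 this exact test gave p = 0.0156 (adjusted 0.102), and for Col6a3 to Col6a2 p = 0.0312 (adjusted 0.122). The pairs were chosen with the values of the genes known.

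**Figure D3:**
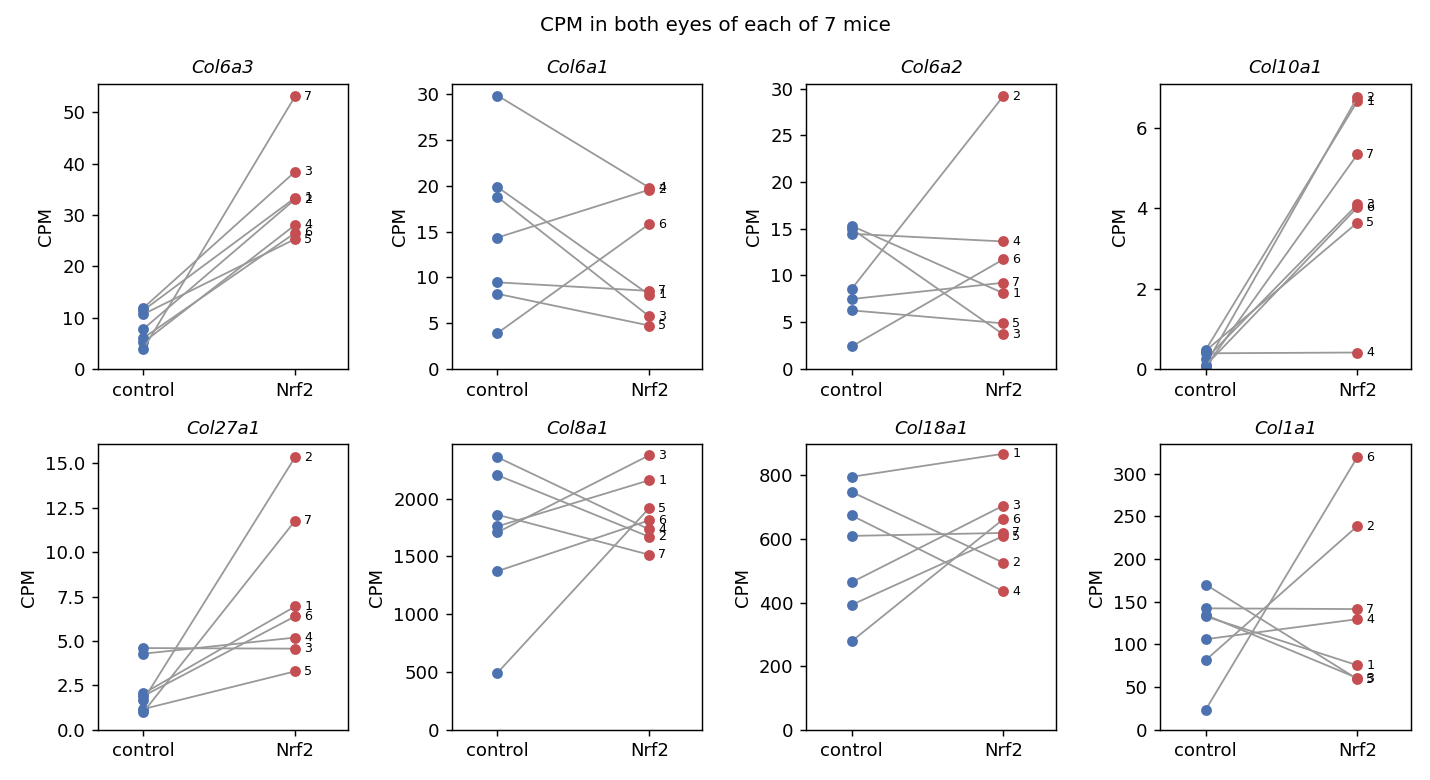
CPM of 8 collagen genes in both eyes of each mouse (blue, control; red, Nrf2; a line joins the eyes of a mouse, and the number is the mouse), each panel on a linear axis from 0. Col6a3 and Col10a1 are higher in the Nrf2 eye of 7 of 7 mice, Col10a1 hardly so in mouse 4, whereas the lines of Col6a1, Col6a2, Col8a1, Col18a1 and Col1a1 cross.

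Fibroblasts make much of the collagen VI of connective tissue, so their markers were set beside Col6a3. None of 14 fibroblast markers passed by edgeR, with 1 at an unadjusted p under 0.05, 0 called by DESeq2 and 1 called lower by voom. Their median log2 fold change was 0.04, and their summed level was 640.4 to 1275 CPM in Nrf2 and 373.2 to 1285 CPM in control eyes, higher in the Nrf2 eye of only 2 mice. Of 7 tested Schwann cell markers 1 rose, or 14.3% against 2.94% of all genes called higher, and DESeq2 and voom each called 1 higher. By edgeR it was the cadherin Cdh19, with a log2 fold change of 2.05 (SE 0.31, edgeR adjusted p = 0.0135), and their summed level was 253.0 to 536.6 against 176.4 to 546.5 CPM. None of 10 macrophage markers passed by edgeR, although 9 had positive values and their median was 1.36, with 2 at an unadjusted p under 0.05, and DESeq2 called 2 higher and 1 lower and voom 0. The negative value was that of the most abundant, Csf1r (-0.76, SE 0.24), lower in 6 of 7 mice. Their summed level had a median of 146.7 CPM in Nrf2 and 257.5 CPM in control eyes, and was higher in the Nrf2 eye of 4 mice. Over all genes, 18.1% had an unadjusted p under 0.05, DESeq2 called 7.6% higher and 4.33% lower, and voom 9.74% higher and 6.19% lower. The part of fibroblasts, Schwann cells and macrophages in the Col6a3 result was not tested.

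The start regions of Col6a3, Col6a1, Col6a2 and Col10a1 are shown because they belong to the called gene Col6a3 with the other 2 main chains of its protein, and to Col10a1, the other called gene. Of the 44 genes, 35 had an entry among the RefSeq promoter windows (GRCm38.p6), each from 250 bases before to 50 bases after a transcription start, 38 windows in all. Capitals mark matches on either strand to TGACNNNGC, the core of the antioxidant response element to which Nrf2 binds, to TGACTCA, the AP-1 site, to CCAAT or to TATAAA. The first 2 motifs overlap in letters when TGACTCA is followed by GC, which is not the case in the windows printed.

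Col6a3, chr1:90843922-90844221, minus strand: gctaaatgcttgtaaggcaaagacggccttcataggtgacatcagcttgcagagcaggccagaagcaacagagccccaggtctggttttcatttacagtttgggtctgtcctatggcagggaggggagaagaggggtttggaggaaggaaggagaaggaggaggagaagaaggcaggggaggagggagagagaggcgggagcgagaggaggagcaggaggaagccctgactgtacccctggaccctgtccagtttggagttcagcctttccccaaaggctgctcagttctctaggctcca

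Col6a1, chr10:76725995-76726294, minus strand: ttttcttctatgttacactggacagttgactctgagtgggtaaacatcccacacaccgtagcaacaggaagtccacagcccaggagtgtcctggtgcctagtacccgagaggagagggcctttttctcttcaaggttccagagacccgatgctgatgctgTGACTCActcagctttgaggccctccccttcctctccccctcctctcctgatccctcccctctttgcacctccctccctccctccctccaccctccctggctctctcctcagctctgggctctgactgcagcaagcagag

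Col6a2, chr10:76623355-76623654, minus strand: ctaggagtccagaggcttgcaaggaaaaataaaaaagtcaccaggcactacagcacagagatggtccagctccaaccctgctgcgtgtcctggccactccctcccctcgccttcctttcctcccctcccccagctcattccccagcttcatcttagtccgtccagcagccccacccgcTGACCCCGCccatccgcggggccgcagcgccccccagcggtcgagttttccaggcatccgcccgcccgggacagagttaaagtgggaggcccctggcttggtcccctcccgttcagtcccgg

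Col10a1, chr10:34389731-34390030, plus strand: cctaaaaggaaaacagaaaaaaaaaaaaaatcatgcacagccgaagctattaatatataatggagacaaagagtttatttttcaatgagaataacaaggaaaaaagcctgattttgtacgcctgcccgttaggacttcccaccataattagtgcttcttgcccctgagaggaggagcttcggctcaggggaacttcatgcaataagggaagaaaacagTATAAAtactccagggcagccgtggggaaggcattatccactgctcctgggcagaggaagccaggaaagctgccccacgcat

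The Col6a3 window held none of the 4 motifs, that of Col6a1 held TGACTCA, and the Col6a2 window printed held TGACNNNGC. Another Col6a2 window, at a different annotated start and not printed, held none of the 4 motifs. The Col10a1 window held TATAAA. Over the family, TGACNNNGC was present in 18.4% of 38 windows, namely those of Col4a2, Col6a2, Col6a5, Col7a1, Col9a2, Col13a1 and Col24a1, against 12.4% of 32851 windows of all genes. The shares for TGACTCA were 2.63% and 5.20%, for CCAAT 34.2% and 37.4%, and for TATAAA 13.2% and 13.6%. None of these 7 genes passed the test, for which Col6a5 was too low. A match is only a run of letters, and its absence here says nothing of more distant sites.

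Col10a1 (ENSMUSG00000039462) lies on the plus strand of chromosome 10, at 34389981 to 34397085. In Nrf2 eyes it measured from 0.408 to 6.77 CPM with a median of 4.10, and in control eyes from 0.0482 to 0.472 CPM with a median of 0.242. In 6 Nrf2 eyes it was above every control eye, and the exception was Nrf2 4, with 10 counts against 11 in control 4. The positive sign in mouse 4 thus rests on scaling for depth. Control libraries held 2 to 19 counts, so the fold rests on a base near the limit of detection. The log2 fold change was 4.30 (SE 0.80, edgeR adjusted p = 0.0265), with a positive difference in 7 of 7 mice, by 0.21 to 5.70 (exact sign-flip permutation p = 0.0156). Without mice 3 and 4 it was 4.98 (adjusted p = 0.0134), and without mouse 4 alone 4.84 (adjusted p = 0.00280). Leaving out any 1 of the other 6 mice took the adjusted p above the threshold, to between 0.0567 and 0.0983, with log2 fold changes of 3.93 to 4.57.

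An exon of Col10a1 overlaps an exon of Nt5dc1, a gene on the opposite strand, and the library kit does not mark strand. Nt5dc1 measured from 25.9 to 43.6 CPM in Nrf2 and from 18.5 to 30.6 CPM in control eyes, with a log2 fold change of 0.56 (SE 0.12, edgeR adjusted p = 0.0424). Reads of the shared stretch cannot be told apart, so the Col10a1 value is uncertain to that extent. Collagen X is best known from cartilage. None of 5 tested cartilage markers passed by edgeR, DESeq2 or voom, with 0 at an unadjusted p under 0.05, and the defining proteoglycan Acan was at 0.544 CPM or less in every library. Their summed level was 257.3 to 378.6 CPM in Nrf2 and 256.4 to 340.3 CPM in control eyes. Most of this sum was Sox9, with means of 263.4 CPM in Nrf2 and 256.1 CPM in control eyes, so it says little of the other markers. The part of cartilage in the Col10a1 value was not tested.

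Among the fibrillar collagens, which assemble into the banded fibrils of connective tissue, none of 11 tested genes passed by edgeR, with 3 at an unadjusted p under 0.05, while DESeq2 called 2 of them and voom 3. Of all genes these tools called 11.9% and 15.9%. Their median log2 fold change was 0.14, and their summed level was 225.8 to 599.3 CPM in Nrf2 and 95.97 to 490.2 CPM in control eyes. Col1a1 measured from 59.3 to 319.5 CPM in Nrf2 eyes, median 129.5, and from 23.2 to 170.1 CPM in control eyes, median 132.7. The groups overlapped, and the fold change of 0.31 (SE 0.58) on the log2 scale was smaller than its error. Col1a2 had a log2 fold change of 0.14 (SE 0.31) and Col3a1 of 0.35 (SE 0.23), and neither passed. In control 6 the summed level of the class was low, at 95.97 CPM against 384.1 CPM or more in the other control libraries. The same library had the lowest sum of fibroblast markers, 373.2 CPM, and whether this bears on the collagen values was not tested. Without mouse 6 the log2 fold changes of Col1a1 and Col1a2 turned to -0.15 and -0.16.

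Col27a1, a long-chain fibrillar collagen known from cartilage, was the fibrillar gene nearest the threshold. It measured from 3.29 to 15.4 CPM in Nrf2 eyes, median 6.39, and from 0.989 to 4.596 CPM in control eyes, median 1.89. Of the Nrf2 eyes 2 lay within the control range. On TMM-scaled log2 CPM the difference within a mouse was positive in 7 of 7, by 0.20 to 3.60. In CPM, mouse 3 was slightly lower in the Nrf2 eye (4.563 against 4.596), so its positive sign rests on TMM scaling. The log2 fold change of 1.84 (SE 0.47) had an edgeR adjusted p of 0.0776. It passed without mouse 4 (2.09, edgeR adjusted p = 0.0287) and without mice 3 and 4 (2.46, edgeR adjusted p = 0.0292). It also passed in edgeR with no replicate block (1.80, adjusted p = 0.0172), in DESeq2 (1.86, adjusted p = 0.000707) and in voom (1.65, adjusted p = 0.0421). These 3 settings called 6.75%, 11.9% and 15.9% of all genes, and the fit without mouse 4 called 12.6%, against 3.43% in the main fit. Col27a1 did not pass with the other scalings or filters. Nor did it pass without any 1 mouse other than mouse 4 (edgeR adjusted p up to 0.222), or without mice 2, 3 and 4.

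Col2a1 and Col11a2, which are fibrillar chains of vitreous and cartilage, had negative values. Col2a1 measured from 2.45 to 16.3 CPM in Nrf2 eyes, median 6.19, and from 1.98 to 63.3 CPM in control eyes, median 17.3. It was lower in 6 of 7 mice, with a log2 fold change of -1.49 (SE 0.53, edgeR adjusted p = 0.185), and DESeq2 and voom called it lower. Col11a2, at 0.791 to 4.35 against 1.30 to 9.23 CPM, was also lower in 6 of 7 mice, with a log2 fold change of -0.88 (SE 0.33, edgeR adjusted p = 0.211). Col11a1, Col5a1, Col5a2, Col5a3 and Col24a1 had log2 fold changes from -0.36 to 0.33. Of these, Col11a1 (-0.36, SE 0.49) was called lower by voom.

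None of 8 basement membrane collagens passed by edgeR, DESeq2 or voom, and 0 had an unadjusted p under 0.05. The median log2 fold change was -0.12, and the summed level was 1119 to 1412 CPM in Nrf2 and 813.4 to 1558 CPM in control eyes. The collagen IV chains come as head-to-head gene pairs, Col4a1 with Col4a2 on chromosome 8, Col4a3 with Col4a4 on chromosome 1 and Col4a5 with Col4a6 on the X chromosome. Their starts are 21, 72 and 1309 bases apart. The first pair makes the network of most basement membranes, and Col4a3, Col4a4 and Col4a5 make the network of mature epithelial membranes such as that of the kidney glomerulus. The start regions of Col4a1 and Col4a2 are shown as the closest pair, since the windows share 78 bases read from opposite strands.

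Col4a1, chr8:11312777-11313076, minus strand: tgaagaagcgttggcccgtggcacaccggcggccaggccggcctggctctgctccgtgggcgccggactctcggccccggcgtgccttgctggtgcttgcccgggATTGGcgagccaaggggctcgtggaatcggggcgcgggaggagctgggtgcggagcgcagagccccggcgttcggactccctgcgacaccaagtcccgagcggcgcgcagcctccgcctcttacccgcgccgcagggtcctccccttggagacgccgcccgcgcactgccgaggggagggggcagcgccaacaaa

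Col4a2, chr8:11312555-11312854, plus strand: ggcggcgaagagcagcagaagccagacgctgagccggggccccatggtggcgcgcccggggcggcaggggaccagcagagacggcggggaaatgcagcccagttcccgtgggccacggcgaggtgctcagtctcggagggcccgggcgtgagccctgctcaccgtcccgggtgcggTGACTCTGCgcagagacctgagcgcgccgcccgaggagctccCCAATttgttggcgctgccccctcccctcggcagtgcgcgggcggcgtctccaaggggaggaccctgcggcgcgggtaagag

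The Col4a1 window held CCAAT read on the other strand, and the Col4a2 window held CCAAT and TGACNNNGC. Neither gene passed the test. Col4a1 measured from 23.4 to 85.5 CPM in Nrf2 eyes, median 53.9, and from 32.6 to 76.5 CPM in control eyes, median 52.4, with a log2 fold change of 0.04 (SE 0.31). Col4a2 had -0.20 (SE 0.23), Col4a3 -0.05 (SE 0.18), Col4a4 -0.18 (SE 0.20), Col4a5 -0.19 (SE 0.27) and Col4a6 -0.23 (SE 0.30). For all 6 the groups overlapped, and each change was within 1 SE of 0. Col4a1 and Col4a2 overlap in an exon on opposite strands, over 22 bases, so only a short stretch of their reads is ambiguous.

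Chain ratios within the pairs were narrow. Per kb of transcript, Col4a3 stood at 0.732 to 1.061 times Col4a4 over all 14 libraries, and Col4a5 at 2.18 to 2.96 times Col4a6. Col4a5 was the most abundant of the 6 chains per kb. The ratio of Col4a1 to Col4a2 was wider, from 0.659 to 1.78, and its highest value was in Nrf2 2. The networks themselves were less tightly matched, since Col4a4 stood at 0.706 to 4.03 times Col4a1.

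Col18a1 measured from 435.7 to 868.0 CPM in Nrf2 eyes, median 618.9, and from 277.8 to 795.4 CPM in control eyes, median 609.6. The groups overlapped, with a log2 fold change of 0.35 (SE 0.24, edgeR adjusted p = 0.47). Col15a1, its close relative, was detected with 1 to 77 counts per library, and its log2 fold change of 1.04 (SE 0.69) was not past the threshold.

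**Figure D4:**
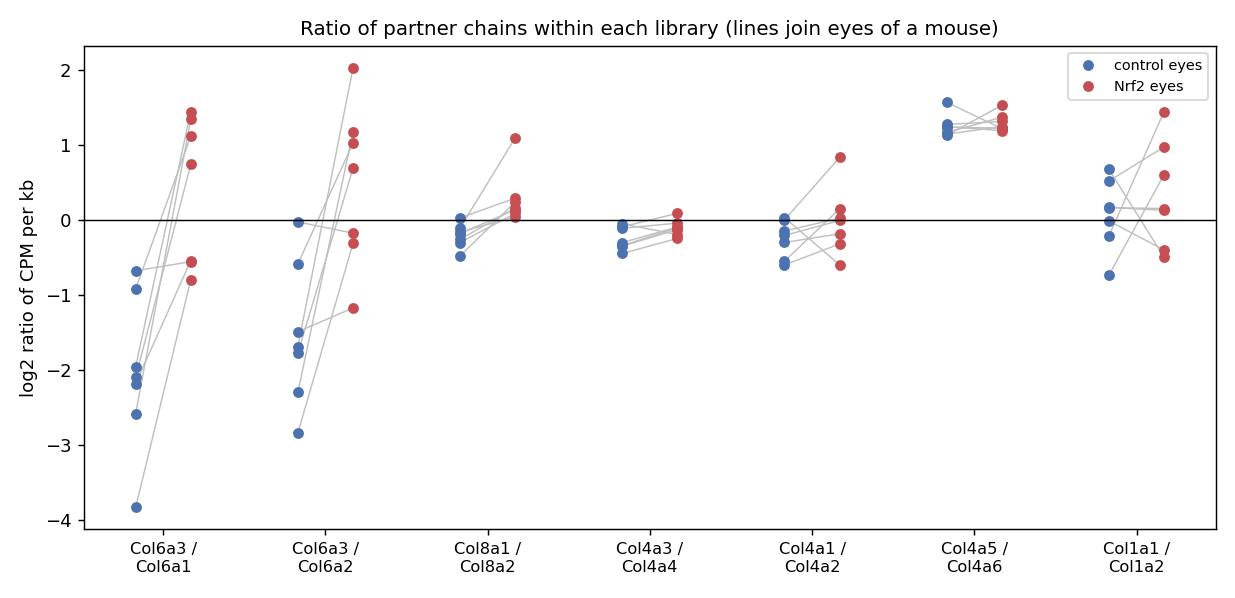
Log2 ratio of CPM per kb between partner chains in each library (blue, 7 control eyes; red, 7 Nrf2 eyes; a line joins the eyes of a mouse; 0 marks equal levels). Col6a3 to Col6a1 spans from -3.83 to 1.44, whereas Col4a3 to Col4a4 stays between -0.45 and 0.09, and the Col8a1 to Col8a2 points do not overlap between groups.

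In the short-chain class, Col10a1 was the one gene of 5 tested that passed. Per kb, the levels of Col8a1 and Col8a2 were 368.6 ± 58.1 and 310.4 ± 81.9 CPM in Nrf2 eyes, next to 258.5 ± 56.6 for Col9a3, and 328.7 ± 121 and 379.8 ± 140.0 CPM in control eyes, where Col9a3 had the highest mean, 394.1 ± 158 CPM (SD, n = 7). Col8a1 measured from 1514 to 2375 CPM in Nrf2 eyes, median 1812, and from 492.0 to 2358 CPM in control eyes, median 1760. Col8a2 measured from 664.7 to 1667 CPM in Nrf2 eyes, median 1450, and from 499.8 to 2238 CPM in control eyes, median 1697. The groups overlapped for both, with log2 fold changes of 0.40 (SE 0.31) and -0.09 (SE 0.37). Their ratio did not overlap between groups. Per kb, Col8a1 stood at 1.03 to 2.13 times Col8a2 in Nrf2 eyes, median 1.11, and at 0.716 to 1.02 times in control eyes, median 0.879. The Nrf2 eye had the higher ratio in 7 of 7 mice, by 0.50 ± 0.35 on the log2 scale (SD, n = 7), and the highest ratio was in Nrf2 2. The exact sign-flip permutation p was 0.0156, the smallest that 7 pairs allow, and 0.102 after adjustment over the 13 chain ratios, so it did not pass.

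The FACIT collagens, which sit on the surface of fibrils, gave 0 calls among 8 tested genes, with 2 unadjusted p-values under 0.05, Col20a1 and Col22a1. DESeq2 called both of these, and voom called Col9a2. The class median of the log2 fold change was -0.43, with 6 genes negative. Summed levels were 696.9 to 1262 CPM in Nrf2 and 781.7 to 2508 CPM in control eyes, lower in the Nrf2 eye of 6 of 7 mice.

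Collagen IX, which coats collagen II fibrils in the vitreous and in cartilage, made up most of these sums. Col9a1 measured from 51.6 to 205.2 CPM in Nrf2 eyes, median 98.6, and from 3.03 to 685.9 CPM in control eyes, median 295.2. In 6 control eyes it was above every Nrf2 eye, and in control 6 it was below all of them. The log2 fold change was -1.26 (SE 0.83, edgeR adjusted p = 0.45) with all mice and -1.78 (SE 0.34, edgeR adjusted p = 0.0539) without mouse 6. Col9a2 was similar, except that control 3, at 48.7 CPM, also lay below Nrf2 7. It measured from 23.6 to 52.7 CPM in Nrf2 eyes, median 31.5, and from 2.40 to 126.9 CPM in control eyes, median 96.0. Its log2 fold change was -0.90 (SE 0.60, edgeR adjusted p = 0.46), and without mouse 6 it fell by 1.37 on the log2 scale (SE 0.17, edgeR adjusted p = 0.0341). Col9a3 was far more abundant and less different, at 480.8 to 960.3 CPM in Nrf2 and 360.8 to 1750 CPM in control eyes, with a log2 fold change of -0.37 (SE 0.33). In control 6, where both other chains were lowest, it was at 1066 CPM. The ratio of Col9a1 to Col9a3 per kb ran from 0.00226 to 0.596 over the control libraries.

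Markers of the retina were set beside these genes. Of 12 retinal neuron and glia markers 2 were called lower and none higher by edgeR, or 16.7% against 0.491% of all genes called lower. Unadjusted p-values were under 0.05 for 8 of the 12, DESeq2 called 7 lower and 1 higher, and voom called 8 lower and 1 higher. Over all genes, 18.1% had such a p, DESeq2 called 4.33% lower and 7.6% higher, and voom 6.19% lower and 9.74% higher. The 12 markers had a median log2 fold change of -1.64, and 11 were negative. Their summed level was 677.2 to 974.5 CPM in Nrf2 and 667.8 to 2134 CPM in control eyes, lowest among controls in control 6. The part of retinal RNA in the collagen II and IX values was not tested.

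Of the remaining FACIT genes, Col20a1 measured from 0.733 to 1.84 CPM in Nrf2 eyes, median 1.12, and from 1.61 to 3.89 CPM in control eyes, median 2.54. It was lower in 6 of 7 mice, with a log2 fold change of -0.93 (SE 0.30, edgeR adjusted p = 0.145). Col22a1, a collagen of tissue junctions, measured from 0.356 to 4.81 CPM in Nrf2 and from 0.212 to 1.29 CPM in control eyes, and was higher in 6 of 7 mice (1.72, SE 0.62, edgeR adjusted p = 0.191). Groups overlapped for both genes.

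The transmembrane collagens gave 0 edgeR calls among 4 genes, with 0 unadjusted p-values under 0.05. Voom and DESeq2 also called none of them, and the class median of the log2 fold change was -0.29. Col17a1 encodes a hemidesmosome protein of stratified epithelium. It measured from 12.7 to 250.4 CPM in Nrf2 eyes, median 65.8, and from 21.6 to 404.3 CPM in control eyes, median 140.7. It was lower in 6 of 7 mice, with a log2 fold change of -1.01 (SE 0.67, edgeR adjusted p = 0.46), and without mouse 4 it fell by 1.49 on the log2 scale (SE 0.37, edgeR adjusted p = 0.0380). That fit called 12.6% of all genes, against 3.43% with all mice. With any other single mouse left out Col17a1 did not pass, with an edgeR adjusted p up to 0.725 and a log2 fold change as small as -0.68. Col7a1, the anchoring fibril collagen beneath such epithelium, was likewise lower in 6 of 7 mice, at 5.03 to 20.4 against 7.03 to 68.7 CPM (-0.97, SE 0.54, edgeR adjusted p = 0.38).

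Keratins and other surface epithelium markers went along with them. Their summed level was 2742 to 25740 CPM in Nrf2 and 2538 to 61070 CPM in control eyes, lower in the Nrf2 eye of 6 of 7 mice. All 9 had negative values, with a median log2 fold change of -1.18. None passed by edgeR, with 1 at an unadjusted p under 0.05, 3 called lower by DESeq2 and 1 by voom. Over all genes, 18.1% had such a p, and DESeq2 called 4.33% lower and voom 6.19%. The same control library, number 6, had the highest Col17a1, the highest Col7a1 and the highest sum of these markers, and control 4 had the lowest of each. The part of surface tissue in the values of both collagens was not tested.

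Col23a1 measured from 79.7 to 182.9 CPM in Nrf2 eyes, median 143.8, and from 12.3 to 360.9 CPM in control eyes, median 254.1. Control 6 was again the low exception, and the log2 fold change was -0.51 (SE 0.59) with all mice and -0.97 (SE 0.21, edgeR adjusted p = 0.0705) without mouse 6. Col13a1 and Col25a1, at 0.505 to 5.43 and 1.63 to 8.49 CPM over all libraries, had log2 fold changes of 0.59 (SE 0.37) and -0.07 (SE 0.40). Col26a1, chosen after its values were seen, was at 0.342 to 1.73 CPM in 13 libraries and at 29.6 CPM in Nrf2 2.

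**Figure D5:**
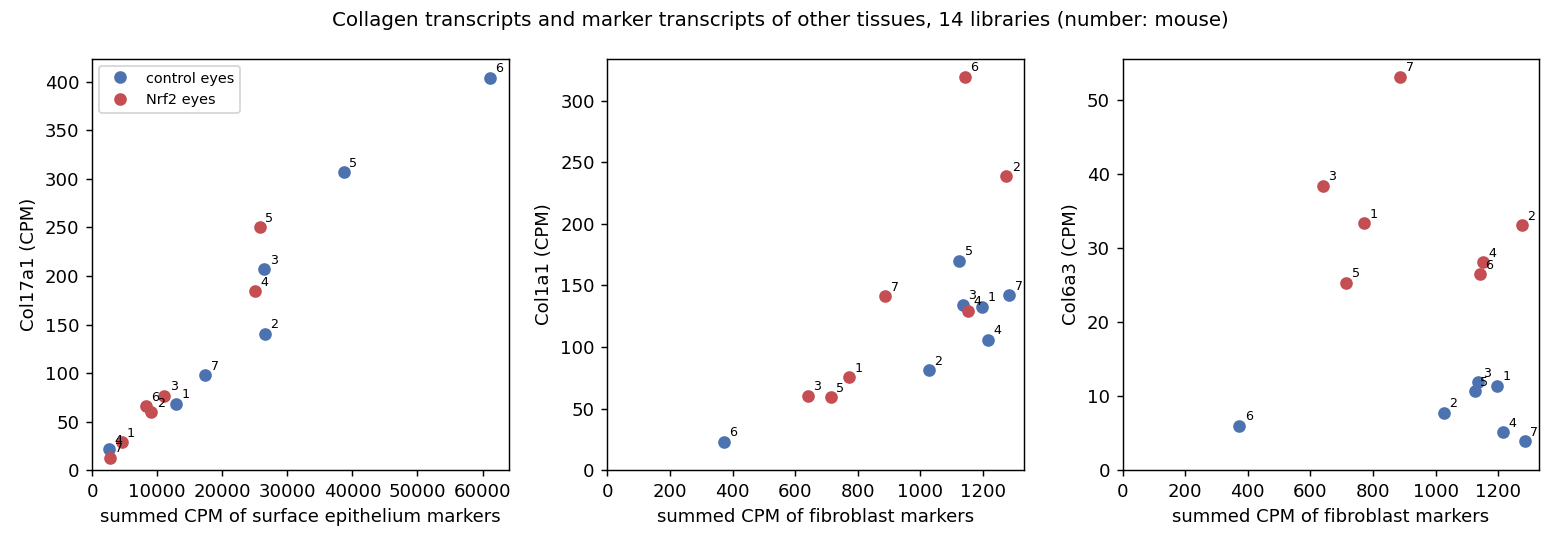
CPM of Col17a1 against the summed CPM of 9 surface epithelium markers, and of Col1a1 and Col6a3 against the summed CPM of 14 fibroblast markers, with 1 point per library labelled by mouse number (blue, control; red, Nrf2). Control 6 lies at the top right of the first panel (61070 and 404.3 CPM) and at the lower left of the second, while in the third Col6a3 is at 25.3 CPM or more in the red points and at 11.9 CPM or less in the blue ones.

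Collagen chains are hydroxylated, folded and exported by a shared set of enzymes and carriers, then trimmed and cross-linked outside the cell. Of 36 tested genes of this machinery 5 rose, or 13.9% against 2.94% of all genes called higher, and none fell. Their median log2 fold change was 0.23, and the list was chosen with earlier results of these data known. The 5 were each higher in 7 of 7 mice on TMM-scaled log2 CPM. Pepd, the dipeptidase that recovers proline from collagen breakdown, measured from 119.0 to 195.1 CPM in Nrf2 eyes, median 168.2, and from 84.7 to 131.5 CPM in control eyes, median 105.4. Only the lowest Nrf2 eye, Nrf2 4, fell within the control range. In CPM it lay below control 4, the highest control eye, so the positive sign of Pepd in mouse 4 rests on TMM scaling. The log2 fold change of Pepd was 0.81 (SE 0.14, edgeR adjusted p = 0.0191).

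Pcolce, which speeds the removal of the procollagen C-propeptide, was the one gene of these 5 whose groups did not overlap. All Nrf2 eyes lay above all control eyes for 1.04% of all genes tested. Pcolce measured from 503.7 to 833.9 CPM in Nrf2 eyes, median 643.1, and from 286.0 to 485.3 CPM in control eyes, median 427.2 (log2 fold change 0.86, SE 0.18, edgeR adjusted p = 0.0400). P3h4, a partner of the prolyl 3-hydroxylases in the endoplasmic reticulum, rose by 0.51 on the log2 scale (SE 0.10, edgeR adjusted p = 0.0347). Plod3, a lysyl hydroxylase that also glycosylates collagen, rose by 0.51 (SE 0.11, edgeR adjusted p = 0.0426). Mia3, also called TANGO1, loads procollagen into transport carriers and rose by 0.39 (SE 0.08, edgeR adjusted p = 0.0415).

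These calls lie near the threshold. None of the 5 passed when mouse 1, 3, 5, 6 or 7 was left out, and without mice 3 and 4, when 4.59% of all genes were called, the calls were Pepd and P4ha1, the catalytic subunit of prolyl 4-hydroxylase. Scaled by library totals alone, only Pcolce and Pepd passed. The collagen chaperone Serpinh1 and Fkbp10, a prolyl isomerase, had log2 fold changes of -0.24 (SE 0.19) and -0.38 (SE 0.27), and without mouse 6 both were called lower.

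None of 11 tested collagen receptors passed (median log2 fold change -0.03), 0 by edgeR at an unadjusted p under 0.05 and 0 by DESeq2, and voom called Antxr1 and Cd44 lower. The 2 with the smallest unadjusted p were the integrin chain Itgb1 (0.23, SE 0.12) and the proteoglycan Cspg4 (-0.34, SE 0.19), and the discoidin receptor Ddr1 was at -0.03 (SE 0.09). None of 25 fibril partners passed by edgeR (median 0.02), with 1 at an unadjusted p under 0.05, 1 called lower by DESeq2 and 2 by voom. The nearest were the elastic fibre protein Fbln5 (-0.48, SE 0.13, edgeR adjusted p = 0.0807) and its relative Fbln1 (-0.45, SE 0.28). None of 22 basement membrane partners passed by edgeR (median 0.05), with 3 at an unadjusted p under 0.05 and 1 called each way by both DESeq2 and voom. The nearest were Egflam, or pikachurin (-1.98, SE 0.46, edgeR adjusted p = 0.0570), which was lower in 6 of 7 mice, and the laminin chain Lama1 (0.89, SE 0.27, edgeR adjusted p = 0.128), which was higher in 7 of 7.

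Of 22 genes of the TGF-beta pathway, a main inducer of collagen synthesis, 1 passed, or 4.55% against 3.43%, and the median log2 fold change was -0.06. This was Ccn2, the connective tissue growth factor that TGF-beta induces. It measured from 144.8 to 324.8 CPM in Nrf2 eyes, median 225.8, and from 46.3 to 159.7 CPM in control eyes, median 95.3. The groups overlapped slightly, and the log2 fold change of 1.21 (SE 0.25, edgeR adjusted p = 0.0401) was positive in 7 of 7 mice. Leaving out any 1 of mice 1, 2, 3, 5, 6 or 7 took it above the threshold, to an adjusted p of at most 0.137.

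Markers of further tissues that the eyecup can hold were also examined. Of 9 tested mural and smooth muscle markers 2 fell, or 22.2% against 0.491% of all genes called lower. DESeq2 and voom also each called 2 lower, where they called 4.33% and 6.19% of all genes lower. By edgeR the 2 markers were the pericyte genes Rgs5 and Kcnj8, which fell by 1.354 (SE 0.29, edgeR adjusted p = 0.0407) and 1.59 (SE 0.32, edgeR adjusted p = 0.0334) on the log2 scale. Over the 9 genes, 6 values were positive and 3 negative, with a median log2 fold change of 0.18. The summed level of this list was 409.7 to 1718 CPM in Nrf2 and 350.8 to 1481 CPM in control eyes. None of 10 endothelium markers passed by edgeR, DESeq2 or voom, with 1 at an unadjusted p under 0.05, and their summed level was 77.2 to 226.8 against 63.9 to 346.1 CPM. None of 8 skeletal muscle markers passed by any of the 3 tools, with 0 at an unadjusted p under 0.05, and their summed level was 16.49 to 279.7 against 16.2 to 286.8 CPM.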

How the data were processed

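RNA-seq of RPE from both eyes of 7 rd1 mice at P20 gave 14 libraries, grouped and paired by the animal numbers of the labels. Per the study's methods, the authors aligned reads to mm10 with STAR and, in parallel, estimated transcript abundance with Salmon (version 0.9.1 in the submitters' processing notes, which also name FastQC) for DESeq2. The authors deposited estimated counts, as whole numbers, without normalization between libraries. The rows present point to the Salmon branch, which is an inference. Such counts divide reads between similar sequences by a model. The last row, the vector transcript of human NFE2L2, stayed in the totals and out of the tests. The study used 6 pairs at this age, whereas 7 were analysed here.

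Gene names, positions and transcript lengths came from GENCODE M21 (GRCm38), which matched 34401 of 34452 mouse rows. The length used is that of the transcript with the longest coding sequence. CPM are counts divided by the library total. Differences were tested in edgeR 4.0.16 under R 4.3.3 (quasi-likelihood F-test, mouse as block, TMM scaling, filterByExpr at a minimum count of 10), with Benjamini-Hochberg adjustment over the 16289 genes kept. SE were derived from its F statistic. Fits were tested on simulated counts. For single genes and chain ratios, all sign changes of the 7 differences of log2 CPM (prior count 2) or of log2 ratios gave an exact two-sided permutation p. Total counts from 16548349 to 50543008 made counting error small for all but the lowest genes, although amplified reads that carry no molecular identifier are not separate molecules. The 2 sequencing runs cannot be assigned to libraries and were not compared.

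The pairing rests on eyes of the same animal. Over 11584 genes the deviations of a mouse's eyes from their group means correlated at 0.11, -0.04, 0.01, -0.51, 0.38, -0.34 and 0.20 in mice 1 to 7. The alternatives were no block, RLE, upper quartile or no scaling, DESeq2 1.42.0, voom with quality weights (limma 3.58.1), other filters, and mice left out.

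Members, classes and gene lists were chosen with earlier results of these data known. The text names every called collagen gene, in each class the 3 with the highest mean CPM and the 1 with the smallest p, every tested chain of collagens I, III, IV and VI, and in each partner list the called genes (at most 6), or the 2 with the smallest p where none was called. Genes outside this rule, such as Col2a1, Col11a2, Col22a1, Col26a1 and the markers, were added after their values were seen. RefSeq windows (GRCm38.p6) were searched for 4 motifs. Col4a3, Col9a3, Col26a1, Col14a1, Col2a1, Col22a1, Col5a2, Col12a1 and Col1a1 had no entry.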

Additional observations from a re-analysis of the deposited data

Results flagged for a closer look

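Within the 7 libraries of a group, the highest or lowest value of 4 genes lay far from the rest by Dixon's test at the 95% level. Of 54 groups examined (27 named collagen genes in both groups), chance alone would give about 2.7 such values. Col15a1 was at 3.15 CPM in Nrf2 4, where the next highest Nrf2 library was at 1.27 CPM. Col6a2 was at 29.2 CPM in Nrf2 2, where the next was at 13.6 CPM. Control 6 gave the remaining flags in opposite directions, with Col1a2 lowest at 24.3 CPM (next 85.5 CPM) and Col7a1 highest at 68.7 CPM (next 24.99 CPM). That library also had the lowest fibroblast sum and the highest surface epithelium sum of all 14, and their part in these values was not tested.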

How the results depend on the processing

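The count of 2 collagen genes stayed at 2 with RLE, upper quartile or library size scaling, without a filter and with a mean of at least 10 counts. It was 3 with no replicate block and 3 without mice 3 and 4 (each adding Col27a1), and 6 with DESeq2 (4 higher, 2 lower) or voom (3 each way). It ranged from 1 (without mouse 1, 2, 3, 5 or 7) to 4 (without mouse 4) when single mice were left out, and was 1 (Col10a1) without mice 2, 3 and 4, a choice made after the data were seen. The 5 biosynthesis genes became 8 with no replicate block, 2 with library size scaling, 11 with DESeq2 or voom, 1 without a filter, 2 without mice 3 and 4, and 0 (without mouse 1, 3, 5 or 7) to 11 (without mouse 4) with 1 mouse left out. Receptors went from 0 to 2 with voom, and from 0 to 1 over the mice. Fibril partners went from 0 to 1 with no replicate block or DESeq2, 2 with voom and 0 to 1 over the mice. Basement membrane partners went from 0 to 2 with no replicate block, DESeq2 or voom and 0 to 1 over the mice. TGF-beta genes went from 1 to 2 with no replicate block, DESeq2 or voom, 0 with library size scaling or without a filter, and 0 to 2 over the mice. Over all genes, 559 calls became 1100 without the block, 1943 with DESeq2, 2594 with voom, 347 without a filter and 111 (without mouse 7) to 2052 (without mouse 4). Library size scaling moved the median of all genes from -0.04 to -0.17 and the split of calls from 479 higher and 80 lower to 313 and 200. The causes were not tested. Of 663 values of 39 genes under 17 alternatives, 558 kept direction and side of the threshold, 20 passed it anew, 58 no longer passed and 27 changed sign, all in 10 genes that were not called. With voom, log2 fold changes turned to -0.39 in Col4a1, 0.16 in Col4a3, 0.052 in Col4a4, 0.050 in Col9a3, -0.32 in Col6a2, -0.26 in Col1a1, -0.20 in Col1a2 and 0.35 in Col8a2, and with library size scaling to -0.087 in Col4a1. With 1 mouse left out, they ranged from -0.19 to 0.29 in Col4a1, -0.22 to 0.038 in Col4a3, -0.54 to 0.021 in Col6a1, -0.079 to 0.59 in Col6a2, -0.15 to 0.62 in Col1a1, -0.16 to 0.32 in Col1a2, -0.38 to 0.16 in Col8a2 and -0.30 to 0.16 in Col25a1. Without mice 3 and 4 Col6a1 was at 0.12, and without mouse 2 as well Col6a1 was at 0.039, Col4a3 at 0.057 and Col8a2 at 0.27. Depth limits the 5 untested genes and the control level of Col10a1.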
